A study of Mus musculus with 21 samples.

Results

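RNA of whole mouse testis was compared with a reference RNA on 4 of the 21 arrays of this series, and all probes with a value on at least 3 of the 4 arrays were taken. Each array carried 2 samples of total RNA in 2 channels: wild type whole testis in one, and the Universal mouse refence RNA (Stratagene), as the labels spell it, in the other. Testis was in channel 1 on replicates 1 and 3 and in channel 2 on replicates 2 and 4. The array numbers in the titles are higher for replicates 1 and 2 than for 3 and 4, and no label says whether arrays of near number were processed together. The labels of these arrays name no strain, age, allele or treatment, and do not say whether the 4 testis RNAs came from separate animals. All p-values are therefore about differences among these 4 arrays, and the spread behind them may be technical only. Of the other arrays, the 5 that set whole ovary against the same reference are used here for comparison. The 4 that set whole ovary directly against whole testis are quoted beside them, and all 21 arrays enter an alternative fit.

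The testis makes sperm in tubules where germ cells pass from dividing spermatogonia through meiosis as spermatocytes and then reshape into flagellated spermatids, supported by Sertoli cells inside the tubules and by steroid-producing Leydig cells, muscle-like peritubular cells and macrophages outside them. Male germ cells are known for transcripts that other cells use little: proteins of the synaptonemal complex that pairs chromosomes, of the sperm tail, and of the PIWI-interacting RNA (piRNA) pathway that silences transposons. The X and Y chromosomes are known to be silenced in spermatocytes, and several X-linked housekeeping genes have autosomal copies that germ cells use. A universal reference RNA is a pool of RNA from cultured cell lines, mostly of dividing cells, and serves as a fixed denominator: a gene that is low against it may be low in testis or very high in the pool, and a ratio to it cannot tell these apart.

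The values are log2 ratios, a unit read from their range because the labels and headers do not state it, and each array was centred on its median. A value of 1 is then 2-fold higher in testis than in the reference, relative to the median probe. The labels do not say which sample was the numerator. All pairs of arrays correlated positively across probes whatever their channel order (Pearson's r from 0.651 to 0.862). The ratios had thus been given one orientation before deposit, and testis is the likely numerator because 5 of the 6 tested germ-cell anchor genes were called above 0. These were Tekt2, Sycp1, Smc1b, Sycp3 and Ddx4, and they are therefore not results on the direction. The anchor Oaz3, a gene of late spermatids, was called below 0. With the opposite orientation, every higher would read lower.

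Between 11653 and 13639 of the 16128 probes had a value on an array, and 10104 had one on all 4 arrays and 1924 on exactly 3. The 1336 probes with values on only 2 arrays lay just outside the rule. The median size of the mean ratio was 0.70 for them, against 0.63 on 3 arrays and 0.67 on 4. Replicate 2 stood apart: its standard deviation across probes was 1.68, against 1.16 to 1.25 on the other arrays, and its correlations with them were 0.651 to 0.735, against 0.766 to 0.862 among the others. Of the 5610 genes with 4 values, 593 (10.6%) had 1 array far from the other 3, and in 445 of these it was replicate 2. Channel order changed 0 of 5610 genes at an adjusted p under 0.05, with 50 genes (0.891%) under an unadjusted p of 0.05. Replicates 1 and 2, compared with replicates 3 and 4, also differed in 0 genes by limma's moderated test, with 242 (4.31%) under the unadjusted threshold. With both terms in 1 fit, channel order again changed 0 genes, with 230 (4.10%) under the unadjusted threshold, and the pairs by array number differed in 8 genes.

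Most tested genes of the sperm tail and of early meiotic prophase were higher in testis than in the reference. Most matrix, keratin, growth response and ribosomal protein genes were lower. The anchor genes used to choose the direction are members of the germ-cell lists described below and are counted in them. Of 6324 named genes, 2841 were called (44.9%) by limma's moderated test of the mean against 0, at a Benjamini-Hochberg adjusted p under 0.05. Of these, 1603 (25.3%) were higher and 1238 (19.6%) lower in testis. Of 12028 probes, 4606 were called (38.3%), 2428 of them higher (20.2%) and 2178 lower (18.1%), and 1158 called probes carried no single gene name. The sign was the same on every array with a value for 98.6% of called genes, against 61.7% of all genes. The calls were made from these same values, so this agreement is no separate support for them. Without replicate 1 the count of called genes was 1718, and without each of the others it lay between 2051 and 3111. The call held whichever replicate was left out for 1610 genes.

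Large differences ran mostly upward. At 4-fold or more, 419 genes were higher (6.63%) and 189 lower (2.99%). At 8-fold or more, 141 were higher and 44 lower. At 16-fold or more, 59 were higher and 0 lower, and at 32-fold or more, 19 were higher. The 15 highest and 15 lowest genes with the same sign on all 4 arrays are described next.

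**Figure D1:**
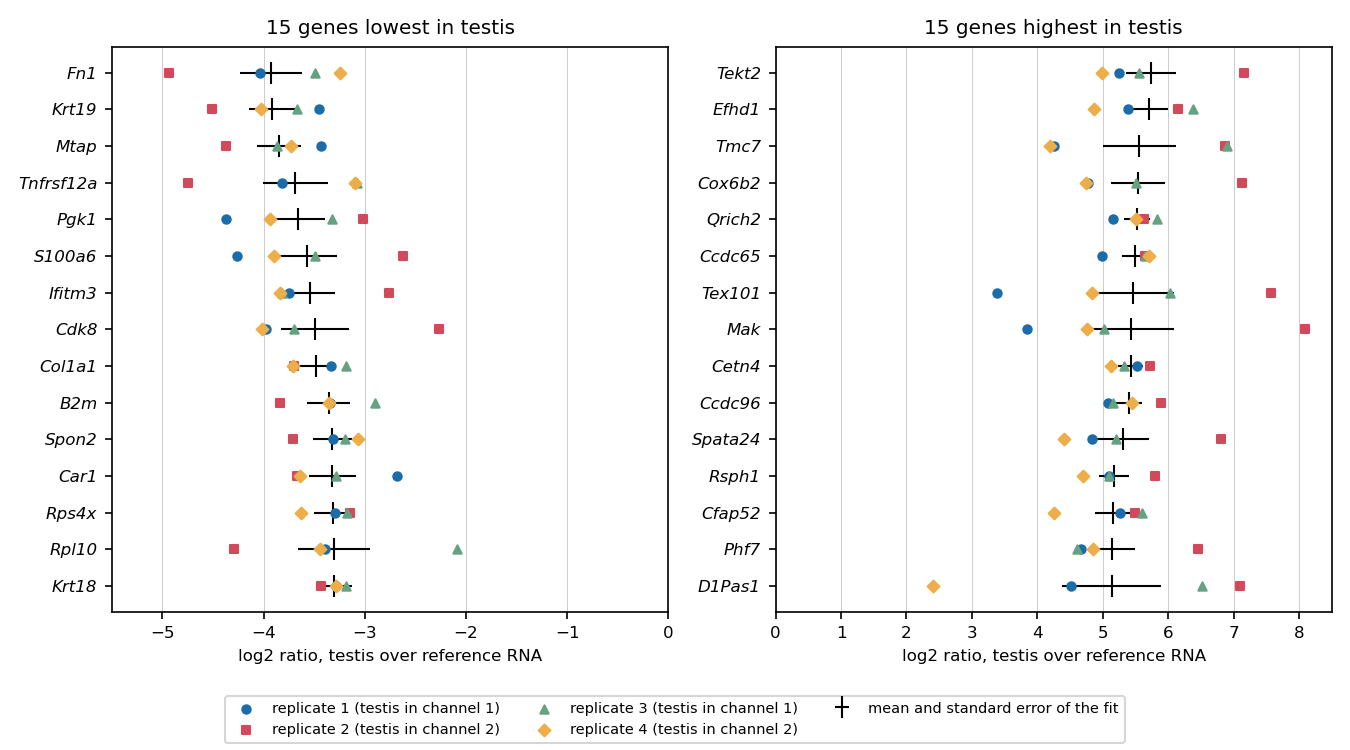
The log2 ratio of testis over reference RNA on each of the 4 arrays (coloured symbols, with the channel that held testis in the legend) is plotted for the 15 lowest (left) and 15 highest (right) called genes, with the mean and standard error of the fit in black. The highest means run from 5.13 to 5.74 and the lowest from -3.93 to -3.30; replicate 2 (red squares) is often the farthest point, and D1Pas1, Tex101 and Mak spread most.

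Tekt2, a filament protein of sperm tails and cilia on chromosome 4, was the highest of these genes. Unc5c, with values on 3 arrays, had a higher mean (6.17 ± 1.17). Tekt2 gave log2 ratios of 5.25, 7.16, 5.55 and 4.98 on replicates 1 to 4. The mean of Tekt2 was 5.74 ± 0.38 (SE, n = 4, 53.3-fold, adjusted p = 0.00029). All 4 arrays were far above 0, with replicate 2 the highest. Cetn4, a centrin of cilia and basal bodies on chromosome 3, was among the most even, with 5.52, 5.72, 5.33 and 5.12 (mean 5.42 ± 0.19, 42.9-fold, adjusted p = 0.000158). The radial spoke gene Rsph1 on chromosome 17 gave 5.10, 5.80, 5.09 and 4.69 (mean 5.17 ± 0.23), and Ccdc65, part of the complex that regulates axonemal dynein, gave 4.98, 5.65, 5.64 and 5.71 (mean 5.50 ± 0.21). Cfap52, another protein of the axoneme, stood at 5.15 ± 0.27. The lowest array of these 5 genes was 4.26, for Cfap52.

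Cox6b2, a testis form of a cytochrome c oxidase subunit on chromosome 7, gave 4.77, 7.12, 5.51 and 4.75 (mean 5.54 ± 0.42, 46.4-fold). Qrich2, a sperm flagellum gene on chromosome 11, gave 5.15, 5.63, 5.82 and 5.50. Tex101, a germ-cell surface protein needed for male fertility, and Mak, a kinase of male germ cells and cilia, had means of 5.46 ± 0.63 and 5.42 ± 0.66. Their arrays ranged from 3.38 to 7.57 and from 3.84 to 8.08, so that the fold is loosely fixed although every array was far above 0. Phf7, a histone-binding germ-cell protein on chromosome 14, gave 4.66, 6.46, 4.60 and 4.85 (mean 5.14 ± 0.35). D1Pas1, a DEAD-box RNA helicase of spermatocytes related to an X-linked gene, gave 4.51, 7.10, 6.52 and 2.40 (mean 5.13 ± 0.75, adjusted p = 0.00273). The rest of the 15 were Efhd1, a calcium-binding protein (5.70 ± 0.29), Tmc7 (5.55 ± 0.56), Ccdc96 (5.39 ± 0.21) and Spata24 (5.31 ± 0.40).

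At the other end stood matrix, epithelial and growth-related genes. Fn1, which encodes fibronectin of the extracellular matrix on chromosome 1, gave -4.04, -4.94, -3.49 and -3.25, a mean of -3.93 ± 0.31 (15.2-fold lower, adjusted p = 0.000409). Krt19, a keratin of simple epithelia on chromosome 11, gave -3.45, -4.51, -3.67 and -4.03 (mean -3.92 ± 0.23, 15.1-fold lower). Mtap, an enzyme of methionine salvage on chromosome 4, gave -3.43, -4.37, -3.87 and -3.73 (mean -3.85 ± 0.22). All arrays of these genes were below -3. Pgk1, the X-linked phosphoglycerate kinase of glycolysis, stood at -3.66 ± 0.27, the type I collagen chain Col1a1 at -3.48 ± 0.19, and B2m, the light chain of class I antigen-presenting molecules, at -3.36 ± 0.21. The X-linked ribosomal protein genes Rps4x and Rpl10 were both at -3.31, with standard errors of 0.19 and 0.36. Also among the 15 were Tnfrsf12a (-3.69), S100a6 (-3.57), Ifitm3 (-3.54), Cdk8 (-3.49), Spon2 (-3.32), Car1 (-3.32) and Krt18 (-3.30).

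The named genes were grouped into 33 lists, and each list is described by its counts and the median of its gene means, beside the background of 25.3% higher, 19.6% lower and a median of 0.06 over all 6324 genes. The 5 lists with the highest medians were early meiotic prophase, spermatid acrosome and nucleus, flagellum and axoneme, germ-cell RNA and piRNA factors, and cAMP and calcium signalling. Those with the lowest were immediate early and growth response, interferon and antigen presentation, keratins, smooth muscle, and ribosomal proteins.

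**Figure D2:**
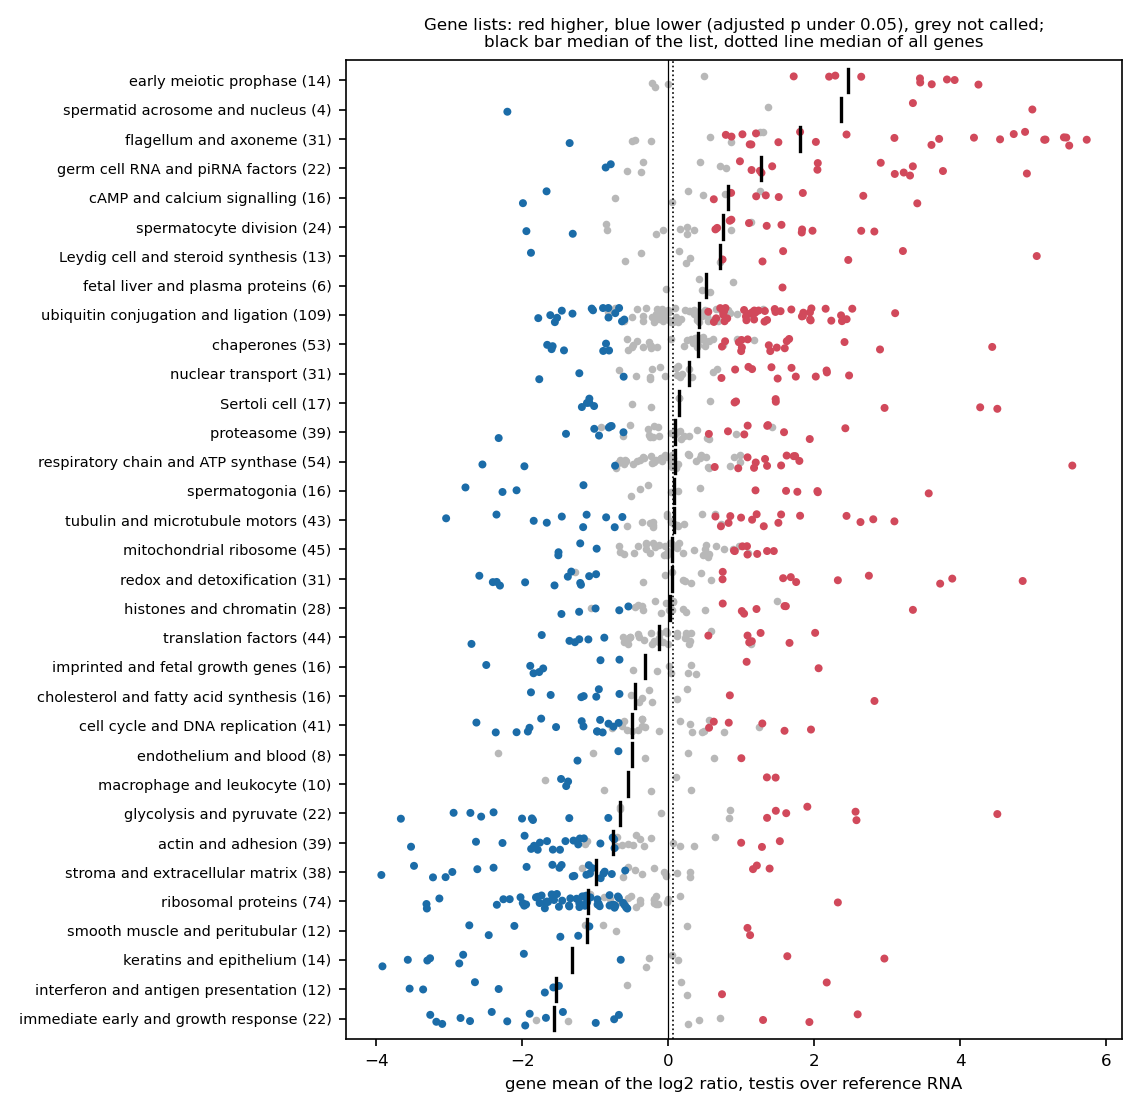
Each point is the mean log2 ratio of testis over reference RNA of 1 gene, in red where it was called higher, blue where called lower and grey where not called, for 33 gene lists with the number of genes tested in brackets. The black bar is the median of a list and the dotted line that of all 6324 genes (0.06); medians run from 2.47 (early meiotic prophase) to -1.56 (immediate early and growth response), and most lists hold genes on both sides of 0.

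Of 31 tested flagellum and axoneme genes, 23 were higher and 1 lower in testis, and the median was 1.81. When each replicate was left out in turn, between 19 and 25 were higher and the median lay between 1.54 and 2.13. Beyond the genes above, the radial spoke gene Rsph9 stood at 4.74 ± 0.36, the nexin-dynein regulator Drc1 at 4.19 ± 0.23, the tubulin glutamylase Ttll5 at 3.61 ± 0.20 and the dynein light chain Dynlt1b at 3.10 ± 0.18. The intraflagellar transport genes of the list were lower down. Ift74 (2.02 ± 0.22), Ift20 (1.20 ± 0.26, n = 3; 0.98 and 1.24 and no longer called without replicate 1 or 4) and Ift52 (0.87 ± 0.19; 0.78 and no longer called without replicate 1) were higher in testis. Ift46 (1.29 ± 0.54), Ift27 (1.26 ± 0.83), Ift81 (0.58 ± 0.25) and Ift88 (-0.23 ± 0.19) did not pass the test. Ift122, of the same process but not in the list, was at 3.01 ± 0.19. Cetn2, the widely expressed centrin, was the 1 member called below the reference (-1.35 ± 0.30). Without replicate 1, Cetn2 was at -1.46 and no longer called.

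Promoter letters were read from RefSeq (GRCm38.p6, 250 bases before and 50 after each gene's start) for 5129 of the 6324 genes, and 19 motifs were searched on both strands. The X-box part GTTGCCAT, the letters bound by the RFX factors of ciliated cells, was picked for mention after all 19 had been looked at. It was in 13 of 357 promoters of genes at least 4-fold higher in testis (3.64%), in 0 of 153 of genes at least 4-fold lower, in 1.21% of all tested and in 1.32% of all 27025 promoters. No test was made, and such a match is a description of letters, not a binding site. The 13 genes were Stard10 (4.25 ± 0.27), Cfap161, Tlcd4, C330024D21Rik, Plxnb1 (2.69 ± 0.19), Chn1, Klf4, Dnaaf2, Kif9, Hmox2, Akap17b, Gde1 and Maats1. The shorter GTTGCC, which the longer form contains, was in 15.7%, 5.88% and 13% of the higher, lower and all tested promoters, and in 12.7% of all promoters. The cAMP response element TGACGTCA was in 3.08%, 1.96% and 3.35%, against 1.88% of all promoters. The MYB core CAGTTG was in 14%, 9.80% and 10.02%, against 13.6% of all promoters.
The 250 bases before the start are shown for 2 of the 13, picked by hand because they are cilium genes. Cfap161 encodes a cilium and flagellum protein and Dnaaf2 a factor that assembles axonemal dynein. The sequences are in gene orientation from 5′ to 3′, and the capitals mark the motif, which lies on the opposite strand, so that the strand shown reads ATGGCAAC. In Cfap161 (chr7:83794840-83795089, minus strand) it begins 41 bases before the start and in Dnaaf2 (chr12:69198430-69198679, minus strand) 11 bases before it.
Cfap161: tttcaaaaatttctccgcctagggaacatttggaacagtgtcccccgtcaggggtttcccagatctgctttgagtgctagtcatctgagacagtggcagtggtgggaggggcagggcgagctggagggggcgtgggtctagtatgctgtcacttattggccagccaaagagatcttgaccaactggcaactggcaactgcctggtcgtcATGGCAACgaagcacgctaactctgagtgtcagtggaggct
Dnaaf2: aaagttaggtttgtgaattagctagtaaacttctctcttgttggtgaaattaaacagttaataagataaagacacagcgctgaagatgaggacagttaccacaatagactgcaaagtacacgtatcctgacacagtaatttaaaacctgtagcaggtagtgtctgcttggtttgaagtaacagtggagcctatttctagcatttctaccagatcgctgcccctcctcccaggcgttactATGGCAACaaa
Cfap161 stood at 3.71 ± 0.27 (13.1-fold) and Dnaaf2 at 2.59 ± 0.49 (6-fold) in testis.

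Genes of early meiotic prophase had the highest median of the 33 lists. Of 14 tested, 10 were higher and 0 lower in testis, with a median of 2.47, and between 7 and 11 were higher when each replicate was left out. The central proteins of the synaptonemal complex were evenly high. Sycp1, its transverse filament on chromosome 3, gave 4.13, 5.72, 3.62 and 3.54 (mean 4.25 ± 0.39, 19-fold, adjusted p = 0.000645). Syce2, a central element protein on chromosome 8, gave 3.75, 4.14, 3.81 and 3.58 (mean 3.82 ± 0.19), and its partner Syce1 gave 4.97, 4.26, 2.82 and 3.65 (mean 3.92 ± 0.36). Every array of these 3 genes was above 2.8.

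The axial element protein Sycp3 varied more between arrays. It gave 1.65, 5.98, 1.74 and 1.21, a mean of 2.65 ± 0.79 (adjusted p = 0.0354), with replicate 2 far above the others. Without replicate 1 it was at 2.98 and no longer called (adjusted p = 0.088). The meiotic cohesin subunit Smc1b stood at 3.61 ± 0.23 and the cohesin subunit Smc3 at 3.45 ± 0.25. The 3 members nearest to 0 sat at the level of the reference: the meiotic kleisin Rec8 (-0.01 ± 0.17), the axial element gene Sycp2 (-0.23 ± 0.23) and the checkpoint ATPase Trip13 (-0.18 ± 0.30). Rec8 was tight, with arrays at -0.09, 0.09, -0.06 and 0.04.

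Genes of the meiotic divisions were mixed. Of 24 tested, 12 were higher and 2 lower, with a median of 0.76, and 6 to 11 were higher when each replicate was left out. The kinases Aurkc, of meiotic chromosomes, and Nek2, of centrosomes, led with 2.83 ± 0.27 and 2.65 ± 0.29. Cyclin Ccnb2 gave 2.14, 1.63, 2.21 and 1.93 (mean 1.98 ± 0.19), and the phosphatase Cdc25a stood at 1.83 ± 0.19. The G1 cyclin Ccne1 (-1.94 ± 0.23) and the spindle checkpoint gene Mad2l1 (-1.31 ± 0.19) were lower in testis. Cdk1, the kinase of cell division, was at -0.85 ± 0.29 without passing the test.

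Of 22 germ-cell RNA and piRNA factors, 14 were higher and 2 lower, with a median of 1.27. Gtsf1, a piRNA cofactor on chromosome 15, gave 4.30, 6.23, 4.83 and 4.30 (mean 4.92 ± 0.36, 30.2-fold). The translational regulator Cpeb2 gave 4.34, 4.35, 3.54 and 2.83 (mean 3.77 ± 0.30), and the piRNA helicase Mov10l1 gave 3.49, 3.75, 3.43 and 2.74 (mean 3.35 ± 0.23). All 3 were above 2.7 on every array. The Tudor proteins Tdrd1 (3.10 ± 0.42) and Tdrd9 (2.91 ± 0.54) and the PIWI protein Piwil2 (1.28 ± 0.19) were called too, as was Larp7, a protein that binds small nuclear RNA (3.31 ± 0.23). The helicase Ddx4 stood at 2.04 ± 0.45 (1.77 and no longer called without replicate 1), and the splicing regulator Celf1 was lower (-0.86 ± 0.18).

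Only 4 genes of the spermatid list were tested, and they disagreed. Rimbp3, a protein of the manchette that shapes the sperm head, gave 5.22, 5.71, 4.61 and 4.42 (mean 4.99 ± 0.26, 31.8-fold). Brdt, the testis bromodomain protein, stood at 3.35 ± 0.26, but its 3 probes averaged between 0.30 and 5.75. Golga3 gave 0.51, 3.64, 0.88 and 0.45 and did not pass the test (adjusted p = 0.086). Oaz3, the antizyme of haploid spermatids, was lower: it gave -1.29, -3.80 and -1.52 on replicates 1, 2 and 4 (mean -2.20 ± 0.53, adjusted p = 0.0232), and it was no longer called without replicate 1 (-2.66) or 4 (-2.55). Protamine and transition protein genes are not analysed here.

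Spermatogonial genes did not stand apart as a list, with 6 higher and 4 lower of 16 and a median of 0.09. Uchl1, a ubiquitin hydrolase of spermatogonia and neurons, gave 2.81, 4.83, 3.18 and 3.47 (mean 3.57 ± 0.35), and the RNA-binding protein Dazl stood at 2.05 ± 0.23. The surface proteins Cd9 (-2.78 ± 0.32) and Itgb1 (-2.27 ± 0.23) and cyclin Ccnd2 (-1.16 ± 0.21) were lower than in the reference. Ccnd1 averaged -2.08 ± 0.54 from arrays at -2.85, 0.13, -2.52 and -3.07, and was no longer called without replicate 1, 3 or 4, at -1.82, -1.93 and -1.75.

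Of 10 pairs of related genes in which one member is known from testis and the other is widely expressed, both tested, the testis member had the higher ratio on all 4 arrays in 8. The values are ratios to the reference and do not say which member has more RNA. Smc1b and the X-linked somatic cohesin gene Smc1a were farthest apart: Smc1b gave 4.10, 3.84, 3.47 and 3.05, and Smc1a gave -2.17, -2.76, -2.41 and -1.82. Rpl39l, an autosomal ribosomal protein gene, was at 2.33 ± 0.30, whereas X-linked Rpl39 was at -2.35 ± 0.33, and the 2 did not overlap on any array. The Rpl39 genes encode near-identical proteins, so probes could share signal between them. Hspa4l, a chaperone related to heat shock proteins, was at 4.44 ± 0.28 and Hspa4 at 1.01 ± 0.21 (0.89 and no longer called without replicate 1).

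The phosphatase Ppp1cc, one splice form of which is the sperm phosphatase, stood at 1.85 ± 0.40, with replicate 2 at 3.41 and the others between 1.29 and 1.38, against -1.99 ± 0.29 for Ppp1ca. Cetn4 and Cetn3 were at 5.42 and 1.02, and Aurkc and Aurkb at 2.83 and -0.84, of which Aurkb did not pass the test. The polyadenylation factor Cstf2t stood at 0.74 ± 0.23 (0.86, 0.56 and 0.68 and no longer called without replicate 1, 3 or 4), and its X-linked relative Cstf2 at -0.72 ± 0.54, not called, with replicates 3 and 4 above 0. Rec8 exceeded the somatic kleisin Rad21 (-1.22 ± 0.29; -0.95 and -1.19 and no longer called without replicate 1 or 4) while lying at 0 itself. The remaining pairs ran otherwise: Taf7l (0.04 ± 0.22) was above Taf7 (0.49 ± 0.24) on 1 of 4 arrays, and Oaz3 was below Oaz1 (-0.84 ± 0.24) on each of 3 arrays.

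**Figure D3:**
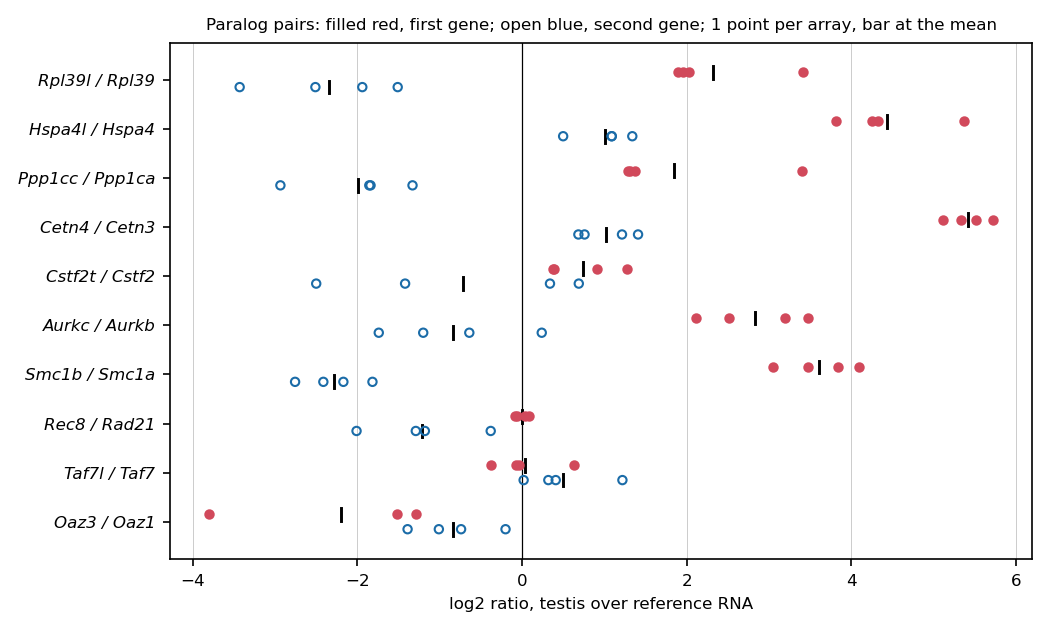
The log2 ratio of testis over reference RNA is plotted for each array (1 point each) for 10 pairs of related genes, with the gene known from testis as filled red points, its widely expressed relative as open blue points, and a bar at each mean. In 8 pairs the red point exceeds the blue one on all 4 arrays, most widely for Smc1b and Smc1a; Taf7l with Taf7 and Oaz3 with Oaz1 do not follow.

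Genes of the supporting cells showed no common direction. In bulk RNA, fewer cells of a type and less RNA per cell cannot be told apart. Of 17 Sertoli genes, 7 were higher and 5 lower, with a median of 0.15. Slc2a3, a glucose transporter that germ cells and neurons also use, gave 3.77, 5.99, 4.14 and 4.14 (mean 4.51 ± 0.38). Cst12, a cystatin of Sertoli cells, gave 5.56, 5.22, 3.56 and 2.76 (mean 4.28 ± 0.49), and clusterin (Clu) gave 3.40, 2.38, 3.22 and 2.86 (mean 2.96 ± 0.23). Vimentin (Vim, -1.08 ± 0.18) and Gata1 (-1.18 ± 0.20) were lower than in the reference.

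Of 13 Leydig and steroid genes, 6 were higher and 1 lower, with a median of 0.71. Cyp11a1, which makes the first cut of the cholesterol side chain, gave 4.63, 5.40 and 5.12 on replicates 1, 3 and 4 (mean 5.05 ± 0.25, n = 3, 33.1-fold), and had no value on replicate 2. Cyp17a1, of androgen synthesis, gave 2.61, 2.62, 1.72 and 2.92 (mean 2.47 ± 0.25). Hsd3b1, of the same pathway, gave 2.73, 5.46, 2.41 and 2.27 (mean 3.22 ± 0.55). The desaturase Fads1 was the 1 lower member (-1.88 ± 0.33).

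Muscle-like and matrix genes lay below the reference. Of 12 smooth muscle and peritubular genes, 6 were lower and 2 higher, with a median of -1.11. Tropomyosin Tpm1 (-2.73 ± 0.19), filamin Flna (-2.46 ± 0.23) and caldesmon Cald1 (-2.11 ± 0.28) were lower, and the myosin kinase Mylk was higher (1.12 ± 0.21). Of 38 stroma and matrix genes, 22 were lower (13 to 21 when each replicate was left out) and 3 higher, with a median of -0.98. Besides Fn1 and Col1a1, Col6a1 gave -3.56, -3.33, -2.92 and -3.08 (mean -3.22 ± 0.20) and the growth factor binding protein Igfbp4 gave -2.69, -4.10, -2.88 and -2.53 (mean -3.05 ± 0.30). Lumican (Lum, 1.39 ± 0.24) and Tgfbi (1.22 ± 0.17) were higher.

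Blood and immune genes were few. Of 10 macrophage and leukocyte genes, 2 were higher and 3 lower: the Fc receptor Fcgr3 (1.47 ± 0.26) and complement C1qb (1.35 ± 0.23) against Fcer1g (-1.47 ± 0.20), Cd24a (-1.37 ± 0.19) and Lcp1 (-1.40 ± 0.36; -1.16, -1.36 and -1.22 and no longer called without replicate 1, 3 or 4). Of 8 endothelial and blood genes, Cdh5 was higher (1.0 ± 0.30, no longer called without replicate 2, 3 or 4, at 0.92, 0.97 and 0.78). The adult globin Hbb-b1 (-1.24 ± 0.18) and the embryonic Hbb-y (-0.68 ± 0.19; -0.68, -0.77 and -0.59 and no longer called without replicate 1, 3 or 4) were lower.

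The keratin and epithelial list and the imprinted and fetal growth list had medians below 0 (-1.31 and -0.32). The fetal liver list had a median of 0.52. Of 14 keratin and epithelial genes, 8 were lower and 2 higher, with a median of -1.31. Krt18 was the most even gene of this end, with -3.29, -3.44, -3.19 and -3.29 (mean -3.30 ± 0.17), and its partner Krt8 stood at -2.81 ± 0.23. The galectin Lgals1 (-2.86 ± 0.19) and annexin Anxa1 (-3.26 ± 0.27) were lower too. Lcn2, a secreted siderophore-binding protein, was 1 of the 2 higher members, at 2.96 ± 0.17. Of 16 imprinted and fetal growth genes, 7 were lower and 2 higher, and among them Hmga2, an embryonic chromatin protein, gave -2.46, -2.36, -2.51 and -2.64. The noncoding RNA H19 (-1.89 ± 0.24) and Dlk1 (-1.84 ± 0.24) were lower, and the RNA-binding protein Igf2bp3 was higher (2.06 ± 0.22). Of 6 fetal liver genes, Apoa4 was called (1.56 ± 0.19), and the others lay between -0.03 and 0.89.

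Growth response genes had the lowest median of all lists, -1.56, with 14 of 22 lower and 3 higher (9 to 14 lower when each replicate was left out). Id3, an inhibitor of differentiation factors, gave -2.85, -3.42, -3.22 and -3.55 (mean -3.26 ± 0.20), and the growth regulator Myc gave -3.42, -2.69, -3.11 and -3.17 (mean -3.10 ± 0.20). Jun (-2.71 ± 0.18) and the stress factor Atf4 (-2.42 ± 0.18) were lower with them, as was Trib3 (-3.18 ± 0.28, n = 3). Ier3 averaged -2.85 ± 0.67, with replicate 3 at -0.02 and the other arrays between -4.01 and -3.45, and it was no longer called without replicate 1 (-2.64) or 4 (-2.49). Klf4, a growth response and pluripotency factor, was higher, with 2.49, 3.36, 2.48 and 2.07 (mean 2.60 ± 0.25, 6.05-fold).

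Interferon and antigen presentation genes were lower in 7 of 12 and higher in 2, with a median of -1.54. Besides B2m and Ifitm3, the tetherin gene Bst2 stood at -2.65 ± 0.26 and the proteasome activator Psme1 at -2.32 ± 0.21. Ifi27 was higher at 2.17 ± 0.64 (2.34 and no longer called without replicate 1). Of 41 cell cycle and replication genes, 16 were lower and 6 higher, with a median of -0.49. Thymidine kinase Tk1 (-2.63 ± 0.24) and the replicative helicase gene Mcm2 (-2.36 ± 0.18) were lowest, and the chromatin assembly factor Chaf1a was higher at 1.96 ± 0.23 (n = 3). The histone chaperone Nasp averaged 1.59 ± 0.21, but its 3 probes ran from -0.45 to 3.04.

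The TATA letters TATAAA were in 15.7% of promoters of genes at least 4-fold lower in testis, 5.60% of those at least 4-fold higher and 6.94% of all tested, against 14.2% of all promoters in the table. These letters were among the 19 motifs searched, and no test was made. The 250 bases before the start of Anxa1 (chr19:20390672-20390921, minus strand) and of the growth factor gene Tgfb2 (chr1:186705990-186706239, minus strand; -3.26 ± 0.22, n = 3) are shown, with these letters in capitals, because they stand at the usual distance from a start, at 32 and 31 bases before it.
Anxa1: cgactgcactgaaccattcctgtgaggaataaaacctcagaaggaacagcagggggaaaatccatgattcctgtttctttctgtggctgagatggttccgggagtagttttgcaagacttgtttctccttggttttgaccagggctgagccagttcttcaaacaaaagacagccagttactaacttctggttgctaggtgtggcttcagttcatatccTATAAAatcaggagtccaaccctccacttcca
Tgfb2: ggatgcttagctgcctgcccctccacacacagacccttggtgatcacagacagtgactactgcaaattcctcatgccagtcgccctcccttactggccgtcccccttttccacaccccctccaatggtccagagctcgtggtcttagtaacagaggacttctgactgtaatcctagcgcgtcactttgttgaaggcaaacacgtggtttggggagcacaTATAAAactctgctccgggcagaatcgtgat
Both genes stood at -3.26, and both hold the letters on the strand of the gene.

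Ribosomal protein genes formed the largest list that lay on one side. Of 74 tested, 54 were lower and 1 higher, with a median of -1.09 that stayed between -1.18 and -1.01 when each replicate was left out (37 to 54 lower). The 4 X-linked genes Rps4x, Rpl10, Rpl36a (-3.13 ± 0.36) and Rpl39 were the lowest of the 74, and Rpl39l was the 1 higher. Among translation factors the directions were balanced, with 7 higher and 7 lower of 44. Initiation factor Eif5 was at 2.01 ± 0.23 and elongation factor Eef1b2 at -2.69 ± 0.26.

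Genes of sugar metabolism lay on both sides of 0. Of 22 glycolysis and pyruvate genes, 7 were higher and 10 lower. The glucose transporter Slc2a1 (-2.94 ± 0.33) stood opposite Slc2a3 (4.51 ± 0.38), and Gapdh, which gave -1.70, -3.70, -2.35 and -3.09 (mean -2.71 ± 0.34), went with Pgk1 and the mutase Pgam1 (-2.56 ± 0.24). Hexokinase Hk1 (2.58 ± 0.35) and Gpd2, of the glycerophosphate shuttle (2.57 ± 0.23), were higher. Of 54 respiratory chain genes, 13 were higher and 3 lower with a median of 0.09. Apart from Cox6b2, the highest was Ndufc1, of complex I (1.80 ± 0.18), and the lowest were Cox8a (-2.54 ± 0.39) and X-linked Cox7b (-1.97 ± 0.28). Mitochondrial ribosomal genes had a median of 0.0575, near the 0.06 of all genes. Of 45, 8 were higher (17.8%) and 4 lower (8.89%), both below the shares over all genes (25.3% and 19.6%).

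Redox genes also split, with 10 higher and 12 lower of 31. Glutathione transferase Gstm5 gave 3.96, 6.0, 4.86 and 4.61 (mean 4.86 ± 0.34, 29-fold) and Gpx4, the selenoprotein of the sperm midpiece, gave 2.83, 2.89, 2.55 and 2.73 (mean 2.75 ± 0.18). Txndc2, a thioredoxin of the sperm tail, ranged from 1.41 to 6.95 (mean 3.89 ± 0.81; 3.88 and no longer called without replicate 1). The general thioredoxin Txn1 (-2.59 ± 0.22) and the ferritins Fth1 (-2.40 ± 0.22) and Ftl1 (-2.35 ± 0.28) were lower.

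Ubiquitin and chaperone genes had medians above that of all genes, and proteasome genes lay near the background. Of 109 ubiquitin conjugation and ligation genes, 40 were higher and 15 lower with a median of 0.43, and 24 to 42 were higher when each replicate was left out. The ligases Rnf139 (3.11 ± 0.50) and Rnf19a (2.52 ± 0.20), the conjugating enzyme Ube2n (2.44 ± 0.19) and the hydrolase Usp16 (2.38 ± 0.23) led. Of 39 proteasome genes, 9 were higher (23.1%) and 8 lower (20.5%), with a median of 0.098 that lay between -0.0067 and 0.12 when each replicate was left out. The ATPase subunits Psmc3 (2.43 ± 0.19) and Psmc2 (1.94 ± 0.21) were highest. Of 53 chaperones, 16 were higher and 7 lower with a median of 0.41, with Hspa4l, Dnajc15 (2.90 ± 0.18) and Dnajb1 (2.42 ± 0.41) at the top and the general chaperone Hspa8 at -1.58 ± 0.21.

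Nuclear transport genes were higher in 12 of 31 and lower in 3. The importins Ipo5 (2.48 ± 0.20) and Ipo4 (2.17 ± 0.18) led, with Ipo7 at -1.77 ± 0.23. Of 16 cAMP and calcium signalling genes, 8 were higher and 2 lower, and the phosphodiesterase Pde8a stood at 3.41 ± 0.22 (n = 3) and the anchoring protein Akap1 at 2.67 ± 0.23 (n = 3). Actin and adhesion genes were lower in 20 of 39 and higher in 3, with moesin (Msn) at -3.52 ± 0.52 and myosin Myh9 at -2.63 ± 0.27, both over 3 arrays. Tubulin and motor genes were spread, with 15 higher and 10 lower of 43. They ran from Dynlt1b, described above, Kif2c, a kinesin that depolymerises microtubules (2.81 ± 0.25), and Tubb4b (2.63 ± 0.28) to the dynactin subunit Dctn2 (-3.04 ± 0.44). Histone and chromatin genes (7 higher, 5 lower of 28) lay close to the background, and of 16 cholesterol and fatty acid genes, 2 were higher and 7 lower, with squalene synthase Fdft1 at 2.83 ± 0.23 (n = 3).

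X-linked genes had a lower median than autosomal genes on each of the 4 arrays. Of 190 tested X genes, 66 (34.7%) were lower and 22 (11.6%) higher, with a median of -0.42, against 19.2% lower, 25.9% higher and a median of 0.08 over 6059 autosomal genes. The X median was -0.51, -0.55, -0.40 and -0.38 on replicates 1 to 4, and the autosomal median was between 0.05 and 0.13. Without the 4 ribosomal protein genes, 62 of 186 X genes (33.3%) were lower. Without replicate 1, 45 X genes (23.7%) were lower, and so were 11.6% of autosomal genes. Without each of the others, 52 to 75 X genes were lower. No chromosome was set against another in a test.

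The lowest X genes were Pgk1, moesin and Rps4x, described above. The highest were Bex4, which gave 2.99, 4.48, 6.16 and 3.10 (mean 4.18 ± 0.54), Gm9 (3.23, 4.98, 3.25 and 2.52, mean 3.50 ± 0.40), and the RNA export factor Nxf2. Nxf2 gave 1.97, 6.0, 2.17 and 0.90 (mean 2.76 ± 0.79) and was at 3.02 and no longer called without replicate 1. The 1 tested Y gene was Eif2s3y, a translation factor subunit of spermatogonia. It gave 1.02, 1.67, 1.13 and 0.53 (mean 1.09 ± 0.23, 2.13-fold, adjusted p = 0.0113), and was at 1.11 and no longer called without replicate 1.

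Among the autosomes, chromosomes 15 and 14 lay farthest from the rest. On chromosome 15, 75 of 258 genes (29.1%) were lower and 44 (17.1%) higher, with a median of -0.26. On chromosome 14, 83 of 241 (34.4%) were higher and 39 (16.2%) lower, with a median of 0.35. Without replicate 1, 49 genes were lower on chromosome 15 and 57 higher on chromosome 14. For ovary against the same reference, the median of chromosome 15 was -0.33, with 71 of 254 genes lower, so the low side of chromosome 15 was seen with both tissues, which share the reference. The X median there was -0.04, with 22 genes higher and 22 lower of 187, and that of chromosome 14 was 0.06. Over all 6203 genes with ovary, 9.75% were higher and 11.9% lower. In the test of testis minus ovary, 60 of 187 X genes were lower and 14 higher. The shares over all 6203 genes were 16.7% lower and 21.8% higher.

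**Figure D4:**
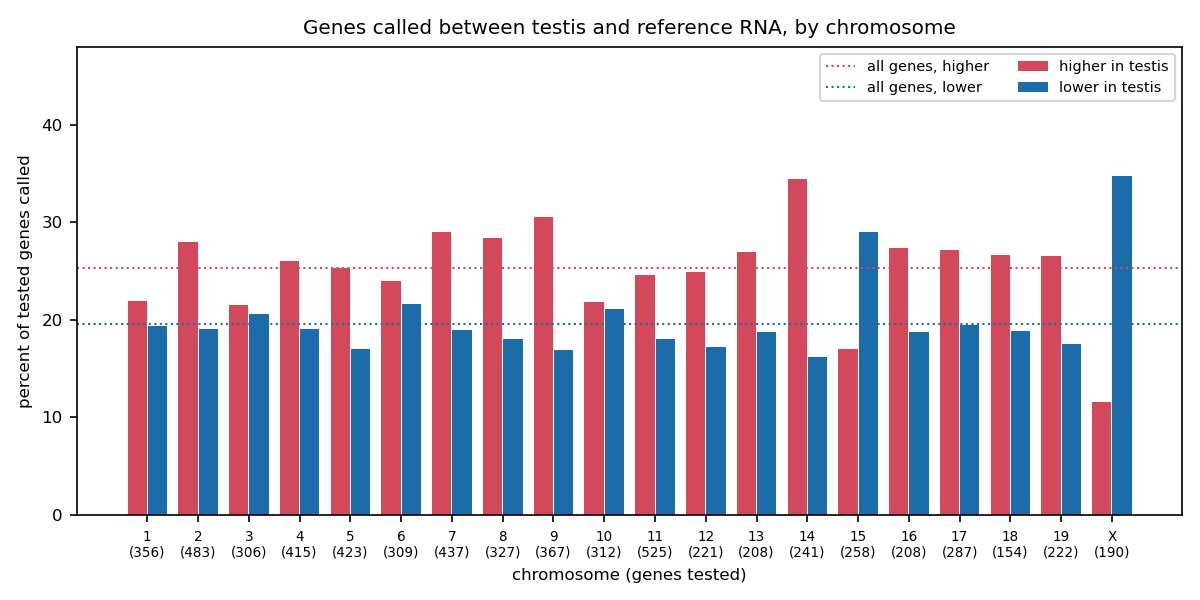
Bars give the percent of tested genes called higher (red) and lower (blue) in testis against the reference RNA for each autosome and the X, with the number of genes tested in brackets; dotted lines give the same over all genes (25.3% and 19.6%). The X stands out with 34.7% lower and 11.6% higher, followed by chromosome 15 with 29.1% lower, and chromosome 14 has the tallest red bar at 34.4%.

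The ovary arrays, which share the reference RNA with the testis arrays, show which of these ratios were also seen with the other gonad. Because of the shared reference, the values of both are set side by side, and the test is that of their difference, over the probes with values in both groups. Of 6203 genes, 2388 differed (38.5%), 1355 with a higher ratio in testis (21.8%) and 1033 with a lower one (16.7%). Scaling all arrays to one spread gave 1842. The 4 arrays that set ovary directly against testis, with the sign turned to testis minus ovary, are quoted for single genes where their call was another.

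Of the 419 genes at least 4-fold higher in testis, 383 had an ovary value. Their median was 2.61 with testis and 0.23 with ovary, 97 were also called higher in ovary and 17 lower (over all genes 9.75% and 11.9%), and the difference was called upward for 342 and downward for 1. Of the 189 genes at least 4-fold lower, the medians were -2.45 and -0.77, 106 were also lower in ovary and 8 higher, and the difference was called downward for 155 and upward for 0. Since the testis values chose these genes, the counts of differences are a description.

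Tekt2 was at 5.74 with testis and 0.50 with ovary, a difference of 5.23 (adjusted p = 6e-06). Phf7 was at 5.14 and -0.09, and Rimbp3 at 4.99 and -0.42. Hspa4l was at 4.44 and -0.34, and Krt19, at -3.92 with testis, was at 0.89 with ovary, a difference of -4.80. Of the 15 highest genes, Efhd1 (4.18), Cfap52 (2.42), Cox6b2 (1.95) and Ccdc65 (1.83) were called higher in ovary too (ovary means in brackets). So were Rsph1 (1.47), Cetn4 (1.07) and Ccdc96 (1.01). Tekt2, Phf7 and Spata24 (0.36) were not, and the others had no ovary value. For Efhd1 the difference of 1.52 did not pass limma's test (adjusted p = 0.095), whereas the direct arrays gave 2.40 (adjusted p = 0.0041). Fibronectin (Fn1) was low with both, at -3.93 and -3.01, and their difference of -0.92 did not pass by limma's test (adjusted p = 0.11), whereas the direct arrays gave -0.98 (adjusted p = 0.029). Hmga2 was at -2.49 and -2.59, and Cdk8 at -3.49 and -3.93.

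Among the genes at least 4-fold higher in testis, Hsd3b1, Cyp11a1, Aldh1a1, Ces1d and Bex4 had the highest ovary ratios. Hsd3b1 was at 3.22 with testis and 6.14 with ovary, Cyp11a1 at 5.05 and 5.61, and the carboxylesterase Ces1d at 4.57 and 4.39, and these differences through the reference did not pass limma's test (adjusted p = 0.061, 0.54 and 0.81). On the direct arrays, all 3 were lower in testis than in ovary, by limma's test: Hsd3b1 at -4.01 (adjusted p = 0.00029), Cyp11a1 at -3.24 (adjusted p = 0.00022) and Ces1d at -0.92 (adjusted p = 0.013). Aldh1a1, which makes retinoic acid, gave 3.74, 3.52, 3.51 and 3.63 with testis and averaged 4.84 with ovary, a difference of -1.24 (adjusted p = 0.0083). Bex4 was at 4.18 and 4.27, but its ovary arrays ran from -0.96 to 7.22, and the direct arrays gave -1.66 (adjusted p = 0.0016).

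The 5 genes high in testis with the lowest ovary ratios were Igf2bp3, Klf4, Knstrn, Kif2c and Lyar. Klf4 was at 2.60 with testis and -1.34 with ovary, Kif2c at 2.81 and -1.07, and Igf2bp3 at 2.06 and -1.48. Knstrn, a protein of the mitotic spindle, gave 2.04, 2.21, 2.03 and 1.75 with testis and -1.20 on average with ovary. Lyar, a nucleolar protein, was at 3.51 ± 0.46 and -1.06. All 5 were above 0 on every testis array and below 0 on every ovary array. The testis and ovary values chose these genes, so these signs are no separate support.

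**Figure D5:**
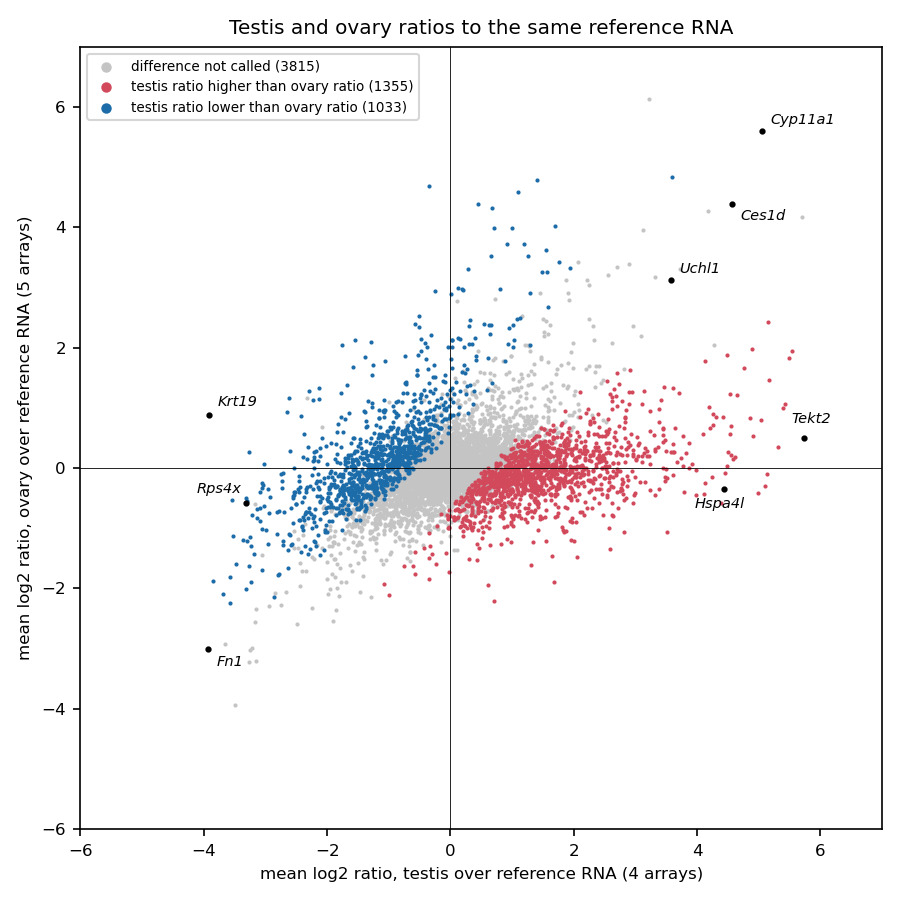
Each point is 1 of 6203 genes, with its mean log2 ratio to the reference RNA in testis (4 arrays, x axis) and in ovary (5 arrays, y axis); red and blue mark genes whose testis ratio was called higher (1355) or lower (1033) than the ovary ratio. Both axes share the reference RNA; Cyp11a1 and Ces1d lie high on both axes and Fn1 low on both, and Tekt2 (5.74 and 0.50) and Hspa4l (4.44 and -0.34) lie far to the right near 0 on the ovary axis.

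Lists of meiosis and of the sperm tail had lower medians with ovary than with testis. The medians over genes tested in both were 2.47 with testis and -0.16 with ovary for early meiotic prophase (difference higher for 8 of 12), 1.51 and 0.40 for flagellum and axoneme (21 of 29), and 0.76 and -0.80 for spermatocyte division (17 of 24). For Leydig and steroid genes they were 0.71 and 1.46, with the difference lower for 5 of 13. Ribosomal proteins were at -1.09 and -0.41, with the difference lower for 32 of 74, and smooth muscle genes at -1.11 and -0.17, lower for 10 of 12. Growth response genes were low with both, at -1.56 and -0.93.

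The 5 called genes that differed most between the channel orders did not pass the test of order (adjusted p = 0.998). 1700086L19Rik gave 5.13, 5.53, -0.69 and 3.95 and Akap17b 3.77, 2.35, 2.84 and -0.06, each with 1 array near or below 0. Mea1, a male-enhanced antigen on chromosome 17, gave 2.65, 7.10, 3.28 and 3.92 (mean 4.24 ± 0.70), and Tbx19 gave 1.98, 1.33, 4.34 and 0.67. The fifth was Ier3. Mea1 kept its call without any 1 replicate. Without replicate 1, the other genes were no longer called, at 2.93 for 1700086L19Rik, 1.71 for Akap17b, 2.11 for Tbx19 and -2.64 for Ier3.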

How the data were processed

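The values were deposited by the authors as 1 number per probe and array, per the file headers, and were read as log2 ratios of the channels, a scale that neither labels nor headers state. Scanner, dyes, background correction and normalization are not given in the sources used here. The deposited median of each of the 4 arrays was 0 and centring on it left them as they were. The number of arrays, and no count, limits the precision.

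Of 16128 probes, 9604 carry exactly 1 symbol in the platform annotation, 213 several and 6311 are not listed; 9496 matched the RefSeq gene table of GRCm38.p6 by gene identifier, which gave the chromosomes. A gene's value on an array is the mean over its probes with values on 3 or more arrays, and probes of 1 gene can disagree: 586 of 660 called genes with several probes had 1 sign. The limma package (version 3.58.1, R 4.3.3) fitted the mean over the 4 arrays with eBayes and tested it against 0, with Benjamini-Hochberg adjustment over all genes or probes and a threshold of 0.05. Errors are the fit's standard errors. On simulated data, with 6324 genes and the real spread, it recovered 30 of 100 genes shifted by 1 log2 unit. It recovered 70 of 100 shifted by 2, with 8 false calls. Only 200 genes were shifted there, a smaller share than the 44.9% called in the data. The adjustment depends on that share, so these recovery rates may not hold for the data. Testis minus ovary was a contrast of the 4 and 5 arrays against the reference. Channel order was not taken into account for the ovary arrays. As 5 arrays cannot be balanced in order, an effect of channel order need not cancel in this contrast.

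The members and the 33 lists, matched by current symbol, were chosen with earlier results of these data known, and 24 genes stand in more than 1 list. Genes are named by a rule: the 15 highest and lowest called on all 4 arrays with 1 sign, the 4 largest called members of each list (all where 5 or fewer were tested), the pairs, 3 X genes at each end and any Y gene, the 5 highest and 5 lowest in ovary among those 4-fold higher, the 5 with the largest effect of channel order, and the anchors. Other list members and promoter genes named in the text were chosen after their values were seen. Alternatives were centring, scaling, the number of arrays required, the limit on ratios, 1 probe per gene, channel order, a block, all 21 arrays in 1 fit, trended eBayes, leaving out each replicate, and each pair of arrays of near number alone.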

Additional observations from a re-analysis of the deposited data

Results flagged for a closer look

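Among 152 named genes with 4 values, 11 had 1 array whose gap to the nearest other, divided by the whole range, exceeded the 95% critical value of Dixon, which chance passes in about 1 of 20 groups. Replicate 2 was the array in 9 of them. It was above the others for Golga3 (0.865; 3.64 against 0.45 to 0.88), Hsd3b1 (0.856; 5.46 against 2.27 to 2.73), Phf7 (0.866), Ppp1cc (0.958), Rpl39l (0.914), Slc2a3 (0.833) and Sycp3 (0.889; 5.98 against 1.21 to 1.74), and nearer to 0 for Cox7b (0.906) and Ifitm3 (0.917). The wider spread of replicate 2 over all probes stands beside these values, and its part in them was not tested. For Ccdc65 (0.904) it was replicate 1, at 4.98 against 5.64 to 5.71, and for Ier3 (0.860) replicate 3, at -0.02.

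Testis and ovary, each against the reference, differed in 2388 genes by the test of the difference. Among genes chosen for their ovary value, the ratio was higher in testis by 3.54 for Igf2bp3, 3.88 for Kif2c, 3.94 for Klf4, 3.21 for Knstrn and 4.58 for Lyar, and the difference for Aldh1a1 was -1.24.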

How the results depend on the processing

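The counts of called genes and probes stayed within 1.5 times of those reported under centring, scaling, other minimum numbers of arrays, a limit on ratios, 1 probe per gene, channel order, all 21 arrays in 1 fit and trended eBayes. With the array number pair as a replicate block (correlation -0.110 over genes), 3028 genes and 5151 probes were called and no named gene changed its call. Leaving out each replicate gave 1718 to 3111 genes called (967 to 1705 higher, 751 to 1406 lower) and 2372 to 5286 probes (1251 to 2761 higher, 1121 to 2525 lower), the fewest without replicate 1 and the most without replicate 2. Of 158 called named genes, 136 kept the call without any 1 replicate, against 1610 of all 2841 called genes. The naming rule picks mostly genes with large means. With replicates 3 and 4 alone, 1609 probes were higher, and with replicates 1 and 2 alone, 1286 probes and 752 genes were lower. With channel order in the same fit, 8 genes differed between the pairs of arrays by number, against 0. The causes were not tested.

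Of the named genes, 4 changed sign, and Nasp was the called one: its probe with most values was at -0.45. Cstf2 was at 0.52 with replicates 3 and 4 alone. Rec8 ranged from -0.037 to 0.023 without 1 replicate, and Taf7l from -0.16 to 0.17; Taf7l was at -0.046 centred on the mean, -0.032 scaled and -0.21 with replicates 3 and 4 alone. Testis minus ovary gave 1842 genes scaled and 3521 on the direct arrays. Signal over background was not analysed, so dim probes could not be removed.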
